A study of Mus musculus with 60 samples.

Results

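A set of 10 genes of acetylcholine signalling was followed through 60 bulk RNA-seq libraries of sorted mouse neurons, out of 35889 genes that could be summed from the deposited transcripts. They comprise the enzyme that makes acetylcholine (Chat), the high-affinity choline transporter (Slc5a7), the enzyme that breaks acetylcholine down (Ache), 4 muscarinic receptors (Chrm1, Chrm2, Chrm3 and Chrm4) and 3 nicotinic subunits (Chrna4, Chrna7 and Chrnb2). The members were chosen by name, with earlier results of these data known. Estimated read counts and the TPM (a level corrected for transcript length and library size) of all of a gene's transcripts were added up in each library. All 10 passed the filter on low counts.

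Nuclei accumbens (NAc) and medial prefrontal cortices (mPFC) came from adult Ai14:cFos-TRAP2 mice, labelled Ai14xFosiCre, in which the Fos promoter drives an inducible Cre and Cre switches on tdTomato. All 60 libraries, the naive ones included, carry the treatment label Dual Cocaine and Sucrose Self-Administration. Neurons (NeuN+) were sorted into 4 populations. The cocaine-seeking population carried tdTomato, tagged with 4-hydroxytamoxifen after cocaine-cued seeking. The sucrose-seeking population was stained by an antibody to cFos after sucrose-cued seeking, the overlapping population had both labels and the non-ensemble population had neither. Each region and sex held 3 pools of 3 mice, and the 4 populations of a number came from the same pool, which gave 48 libraries. A further 12 libraries are labelled naive, 3 per region and sex, and the labels do not say what naive means here. tdTomato reports only cells in which the Fos promoter was active at tagging, and each library averages 3 mice and all neurons of a gate.

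Acetylcholine in the striatum, of which the NAc is the ventral part, comes largely from a small class of cholinergic interneurons. Chat makes the transmitter from choline and acetyl-CoA, Slc5a7 takes choline back up at the terminal, and Ache ends the signal in the cleft. Medium spiny neurons, the projection neurons of the striatum, carry the Gq-coupled receptor Chrm1, and those of the Drd1 class also carry the Gi-coupled receptor Chrm4. Chrm2 is a Gi-coupled receptor that can act as an autoreceptor of cholinergic neurons, and Chrm3 couples to Gq. Chrna4 and Chrnb2 assemble into the high-affinity nicotinic receptor of the brain, and Chrna7 forms a receptor from copies of itself. In the cortex acetylcholine arrives mainly along axons of basal forebrain neurons, whose messenger RNA stays in the cell body.

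The labels were checked before any comparison. Library totals ran from 9466644 to 23773400 estimated counts in the 48 libraries of the 4 populations and from 28506584 to 44538238 in the naive libraries. The description of 30 samples, which are all male mPFC and all female NAc libraries, names another group than their title and region tag. Within each sex they form 1 side of the region comparison. Groups were taken from the title. Sex tags of 2 male mPFC libraries read female. Ddx3y, a Y-linked gene, stood at 11.3 to 20.3 CPM (counts scaled to the library's total) in the 8 libraries of female pool 2, at 0.0809 to 2.01 in the other female libraries and at 15.7 to 43.3 in male libraries, so results are also given without that pool. Region labels met the same difficulty. Summed over 8 cortical excitatory markers, 16 mPFC libraries (all female pools and male pool 2) held 112 to 228 CPM, below all 24 NAc libraries (273 to 837 CPM), and the remaining mPFC libraries, of male pools 1 and 3, held 507 to 1040 CPM. Summed medium spiny neuron markers reached 406 to 2730 CPM in the mPFC and 1770 to 3740 CPM in the NAc. Libraries are therefore named by their label, and "mPFC" below means labelled mPFC.

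The genes lie on separate loci of the GRCm39 build. Chat (ENSMUSG00000021919) spans bases 32129369 to 32187946 of chromosome 14 on the minus strand, and Slc18a3, the vesicular acetylcholine transporter, lies within it on the same strand. Slc5a7 (ENSMUSG00000023945) spans 54580020 to 54606076 of chromosome 17 on the minus strand, and Ache (ENSMUSG00000023328) spans 137285781 to 137292728 of chromosome 5 on the plus strand. Chrm1 (ENSMUSG00000032773) lies at 8640962 to 8662278 of chromosome 19 on the plus strand, Chrm2 (ENSMUSG00000045613) at 36364718 to 36505582 of chromosome 6 on the plus strand and Chrm3 (ENSMUSG00000046159) at 9925522 to 10410883 of chromosome 13 on the minus strand. Chrm4 (ENSMUSG00000040495) is a single exon of 1440 bases at 91757594 to 91759033 of chromosome 2 on the plus strand. Of the nicotinic subunits, Chrna4 (ENSMUSG00000027577) lies at 180660173 to 180685339 of chromosome 2, Chrna7 (ENSMUSG00000030525) at 62731494 to 62862322 of chromosome 7 and Chrnb2 (ENSMUSG00000027950) at 89653502 to 89671953 of chromosome 3, all on the minus strand. Adar overlaps Chrnb2 on the opposite strand, and whether counting used strand is not given in the sources used here, so reads of the 2 genes may not be separable.

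The 250 bases before the start of the 3 genes with the largest NAc against mPFC log2 fold changes in non-ensemble neurons are printed here, since many of the results turn on those genes. They come from RefSeq, build GRCm38.p6, which is not the build of the files, and are read on the gene's own strand. Capitals mark the letters of a searched motif on either strand, namely the CCAAT box, the TATA box, the GC box and the core of the cAMP response element.
Chat, chr14:32465910-32466159, minus strand: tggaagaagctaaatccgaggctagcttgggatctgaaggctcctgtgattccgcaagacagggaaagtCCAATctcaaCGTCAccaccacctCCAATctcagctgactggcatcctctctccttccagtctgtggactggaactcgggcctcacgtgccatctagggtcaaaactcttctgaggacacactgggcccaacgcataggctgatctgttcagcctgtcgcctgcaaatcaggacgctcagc
Slc5a7, chr17:54299035-54299284, minus strand: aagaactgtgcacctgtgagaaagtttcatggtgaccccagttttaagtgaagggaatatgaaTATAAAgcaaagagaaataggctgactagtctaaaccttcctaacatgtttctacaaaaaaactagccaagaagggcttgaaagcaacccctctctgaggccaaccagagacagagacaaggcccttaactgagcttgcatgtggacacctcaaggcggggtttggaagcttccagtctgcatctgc
Chrm4, chr2:91921939-91922188, plus strand: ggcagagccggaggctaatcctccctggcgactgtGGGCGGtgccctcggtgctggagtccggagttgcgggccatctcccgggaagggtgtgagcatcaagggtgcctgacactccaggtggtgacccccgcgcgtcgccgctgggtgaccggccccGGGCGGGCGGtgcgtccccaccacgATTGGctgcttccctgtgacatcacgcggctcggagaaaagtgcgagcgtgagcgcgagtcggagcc
TGACG, the core of the cAMP response element, stood in 2 of the 9 members that the table holds (Chat and Chrnb2), against 17.8% of 32851 promoters of that length. The whole element TGACGTCA, which contains TGACG, and the AP-1 element TGANTCA, to which Fos and Jun dimers bind, were in none of the 9, against 1.55% and 6.75% of promoters. The TATA box TATAAA stood in Slc5a7 (12.4% of promoters), the CCAAT box in Chat, Chrm2 and Chrm4 (33.8%), and the GC box GGGCGG in Ache, Chrm2, Chrm4, Chrna4 and Chrna7 (32.7%). A match describes letters in this window, and none was tested as a binding site.

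Per transcript length, Ache was the highest of the 10 genes in both regions. Over 6 pools of the NAc, each a mean of 4 populations, Ache stood at 150 ± 21.1 TPM (SD), Chrm4 at 93.0 ± 14.3 and Chrm1 at 86.9 ± 7.7. The pool ranges of Chrm4 and Chrm1 overlapped each other and lay below that of Ache. Chrm3 (36.3 ± 3.55 TPM), Chrnb2 (35.2 ± 5.44), Chrna4 (33.2 ± 7.31), Chat (23.9 ± 6.01) and Chrna7 (22.3 ± 3.13) formed a run in which each gene's pools overlapped those of the next. Chrm2 (10.6 ± 2.76 TPM) lay below Chrna7 without overlap, and Slc5a7 closed the order at 7.59 ± 2.25 TPM. In the mPFC the order of the pool means was Ache (119 ± 24.5 TPM), Chrm1 (64.5 ± 18.6), Chrm4 (48.8 ± 13.7), Chrnb2 (45.2 ± 8.69), Chrna4 (44.2 ± 10.9), Chrm3 (38.9 ± 14.1), Chat (19.2 ± 9.83), Chrna7 (17.1 ± 2.46), Chrm2 (9.72 ± 3.09) and Slc5a7 (4.10 ± 3.07), and no gene was separated from its neighbour. The Chrm2 level rests on a transcript of 697 bases, Chrm2-201. With protein-coding transcripts alone, Chrm2 in the NAc stood at 2.44 TPM, Chrm3 at 22.0, Ache at 124 and Slc5a7 at 7.42.

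**Figure D1:**
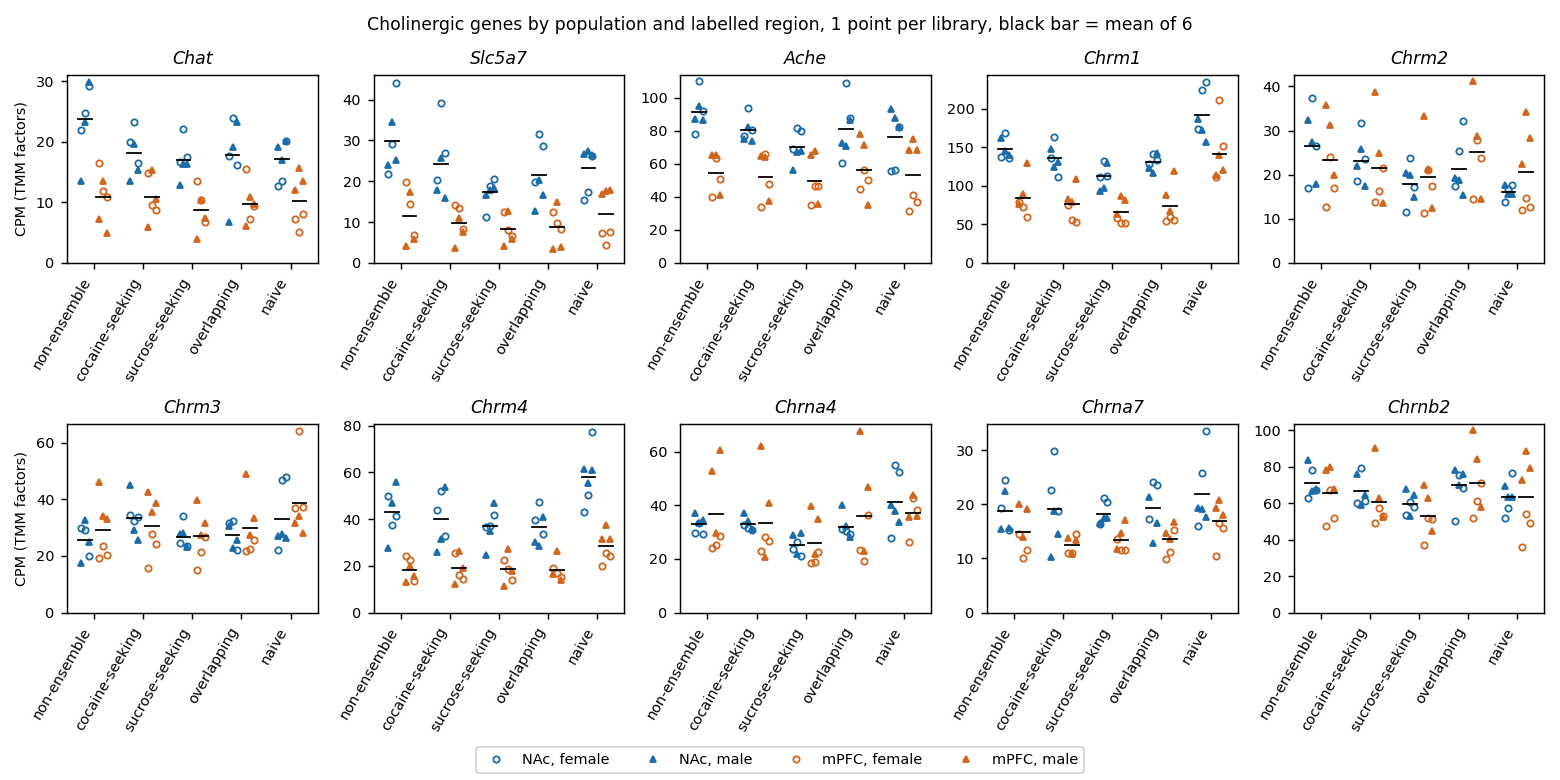
Level of each of the 10 genes in CPM (y axis, linear, from 0) by population (x axis), with 1 point per library, blue for NAc and orange for mPFC, open circles for female and filled triangles for male pools, and a black bar at the mean of 6 libraries. Chat, Slc5a7, Ache, Chrm1 and Chrm4 sit higher in the NAc, where the median of Chrm4 over 24 libraries was 38.5 CPM against 17.4 CPM in the mPFC, whereas the points of Chrm3, Chrna4 and Chrnb2 overlap throughout.

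The first comparison asked how the region label separates these genes within 1 population. Of the 10 genes, 5 rose in NAc against mPFC non-ensemble neurons, 6 in each of the other sorted populations and 5 in naive neurons, and none fell. Chat, Slc5a7, Ache, Chrm1 and Chrm4 were called in all 5 populations, and Chrna7 in the cocaine-seeking, sucrose-seeking and overlapping populations. A gene counts as called at an adjusted p under 0.05 by edgeR's quasi-likelihood test with Benjamini-Hochberg adjustment over all genes tested. The share of all tested genes called in either direction was, in the order non-ensemble, cocaine-seeking, sucrose-seeking, overlapping and naive, 15.6%, 19.5%, 7.33%, 13.7% and 7.93%, and 9.57%, 10.9%, 5.03%, 8.92% and 3.95% were called higher in the NAc. The median log2 fold change of the members ran from 0.42 in naive to 0.60 in cocaine-seeking neurons, and that of all genes tested from -0.16 to -0.02. In bulk libraries, fewer cells of a type and less RNA per cell cannot be told apart.

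Both genes of the cholinergic terminal were higher in the NAc. Chat ranged from 13.5 to 29.8 CPM (median 24) in the 6 NAc non-ensemble libraries and from 4.86 to 16.5 CPM (median 11.3) in the 6 mPFC libraries, so that the regions overlapped. Taking the populations in the order non-ensemble, cocaine-seeking, sucrose-seeking, overlapping and naive, its log2 fold change was 1.19 ± 0.24 (SE, adjusted p = 0.0026), 0.73 ± 0.21 (0.027), 0.99 ± 0.22 (0.0097), 0.87 ± 0.27 (0.038) and 0.81 ± 0.16 (0.0039). Chat therefore differed by region in each sorted population, but in none of the 5 did the lowest NAc library clear the highest mPFC library. Slc5a7 had the largest fold change of the 10 genes in these gene sums. It ranged from 21.8 to 44.1 CPM (median 27.1) in NAc non-ensemble neurons against 4.18 to 19.7 CPM (median 10.6) in the mPFC, and from 15.8 to 39.2 CPM (median 23.1) against 3.76 to 14.3 CPM (median 9.57) in cocaine-seeking neurons, without overlap in either. The log2 fold change of Slc5a7 was, in the same order, 1.43 ± 0.31 (adjusted p = 0.0045), 1.34 ± 0.24 (0.0015), 1.06 ± 0.24 (0.013), 1.28 ± 0.29 (0.0063) and 1.12 ± 0.17 (6e-04). In sucrose-seeking, overlapping and naive neurons the lowest NAc library of Slc5a7 lay below the highest mPFC library.

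Ache, which ends the signal, differed by less. NAc non-ensemble libraries held 78.2 to 110 CPM (median 89.7) and mPFC libraries 40.1 to 65.4 CPM (median 57.2), with no overlap. The log2 fold change of Ache was 0.78 ± 0.14 (adjusted p = 0.0011) there and 0.53 ± 0.14 (0.034) to 0.62 ± 0.16 (0.014) in the other 4 populations. With a block for the pool, since both regions were taken from the same mice, Ache was not called in sucrose-seeking neurons (0.56, 0.051; 4.89% of genes called).

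Among the muscarinic receptors, Chrm1 and Chrm4 separated the regions and Chrm2 and Chrm3 did not. Chrm1 held 136 to 168 CPM (median 142) in NAc non-ensemble libraries and 59.1 to 129 CPM (median 77.3) in mPFC libraries. It did not overlap in the non-ensemble, cocaine-seeking and sucrose-seeking populations, and its log2 fold change was 0.86 ± 0.13 (adjusted p = 0.00032), 0.86 ± 0.14 (0.00054) and 0.81 ± 0.13 (0.00072) there, 0.88 ± 0.13 (0.00018) in overlapping and 0.45 ± 0.13 (0.041) in naive neurons. Chrm4 held 27.7 to 55.9 CPM (median 44.1) in NAc non-ensemble libraries against 13.2 to 24.4 CPM (median 17.8) in the mPFC. The regions did not overlap for Chrm4 in non-ensemble, overlapping and naive neurons. Its log2 fold change was 1.28 ± 0.19 (adjusted p = 0.00021) in non-ensemble neurons and 1.00 ± 0.20 (0.0053) to 1.07 ± 0.22 (0.0042) in the other 4 populations. Chrm2 ran from 11.6 to 37.3 CPM (median 20.1) over the 24 NAc libraries and from 11.4 to 41.2 CPM (median 21.2) over the 24 mPFC libraries. Chrm3 ran from 17.5 to 45.2 CPM (median 28.6) against 15.2 to 48.8 CPM (median 27.4). Neither was called in a population, with 95% intervals of the log2 difference between -0.66 and 0.66 for Chrm2 and between -0.54 and 0.48 for Chrm3.

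Averaged over pools, the nicotinic subunits showed little separation. Chrna4 ran from 21.1 to 40.2 CPM (median 31.0) in the NAc and from 18.5 to 67.8 CPM (median 27.4) in the mPFC, and its intervals lay between -0.51 and 0.45 log2 units. The mPFC pools differed, however. Pool means of Chrna4 were 55.5 and 45.8 CPM in mPFC male pools 1 and 3 and 22.3 to 28.5 CPM in the other mPFC pools. NAc pools held 27.7 to 35.8 CPM of Chrna4. Its partner Chrnb2 ran from 50.4 to 83.4 CPM (median 67.0) against 37.1 to 100 CPM (median 59.7), with intervals between -0.28 and 0.44. Neither subunit was called in any population. Chrna7 held 10.3 to 29.8 CPM (median 18) in the NAc and 9.98 to 20.1 CPM (median 13.6) in the mPFC. It was called higher in 3 populations, by 0.58 ± 0.17 log2 units in cocaine-seeking (adjusted p = 0.029), 0.52 ± 0.16 in overlapping (0.042) and 0.46 ± 0.13 in sucrose-seeking neurons (0.042), and stood at 0.38 ± 0.18 (0.17) in non-ensemble and 0.39 (0.15) in naive neurons. The block for the pool left Chrna7 uncalled in sucrose-seeking neurons (0.47, 0.099) and called in naive neurons (0.36, 0.048; 7.75% of genes).

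**Figure D2:**
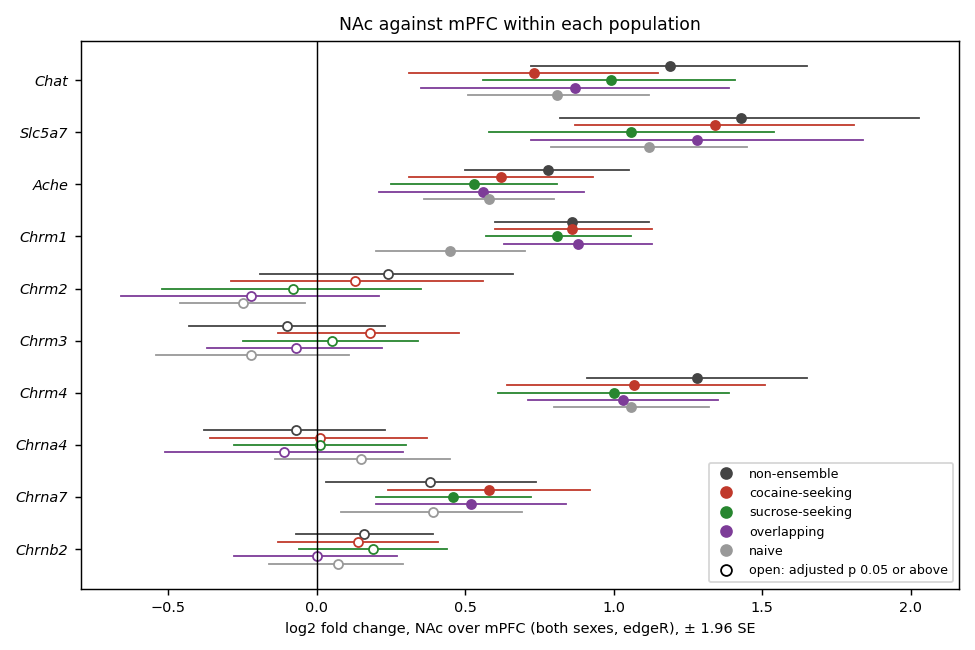
Log2 fold change of NAc over mPFC (x axis) for each gene (y axis), averaged over sexes, with 1 point per population, filled where the edgeR adjusted p is under 0.05, and bars showing the 95% interval. In non-ensemble neurons Slc5a7, Chrm4 and Chat lie farthest to the right, at 1.43, 1.28 and 1.19, and Chrm2, Chrm3, Chrna4 and Chrnb2 lie around 0 with open points.

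Marker levels moved with these values. In the mPFC, the pool means of Chat were 15.1, 9.72 and 8.94 CPM in female pools 1 to 3 and 5.79, 12.5 and 8.14 CPM in male pools 1 to 3, against 11.7 to 23.5 CPM in the NAc pools. Slc5a7 stood at 14.8, 11.4 and 7.46 CPM in the female and 3.89, 14 and 5.83 CPM in the male mPFC pools, against 17.8 to 30.1 CPM in the NAc. Male pool 1 of the mPFC, lowest in both genes, held 406 to 477 CPM of medium spiny neuron markers, and male pool 2 held 2320 to 2460 CPM. The same sum was 1750 to 2730 CPM in female pool 1, 1500 to 1810 CPM in female pool 2, 1140 to 1270 CPM in female pool 3 and 1220 to 1480 CPM in male pool 3. Male pool 3 reached higher sums than female pool 3 and had less Chat and Slc5a7, and the part of the markers in the region differences was not tested. Chrm4 was highest in male pool 2 and lowest in male pool 1 of the mPFC. It stood at 22.9, 18.5 and 14.2 CPM in the female and 13.3, 25.0 and 16.6 CPM in the male mPFC pools. Ache did not follow the order of the marker sums, with 38.5, 58.1 and 48.7 CPM in the female and 68.2, 67.0 and 37.2 CPM in the male mPFC pools. Nor did Chrm1, with 66.5, 59.7 and 55.0 CPM in the female and 77.9, 80.4 and 110 CPM in the male mPFC pools. Among 8 medium spiny neuron markers, 6, 7, 3, 6 and 8 were called higher in the NAc in non-ensemble, cocaine-seeking, sucrose-seeking, overlapping and naive neurons, and among 9 cholinergic neuron markers, which include Chat and Slc5a7, 5, 5, 6, 7 and 8 were. All 4 neuron markers were higher in non-ensemble and cocaine-seeking NAc libraries, and 4 of 4 oligodendrocyte markers were higher in non-ensemble, cocaine-seeking and overlapping ones.

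**Figure D3:**
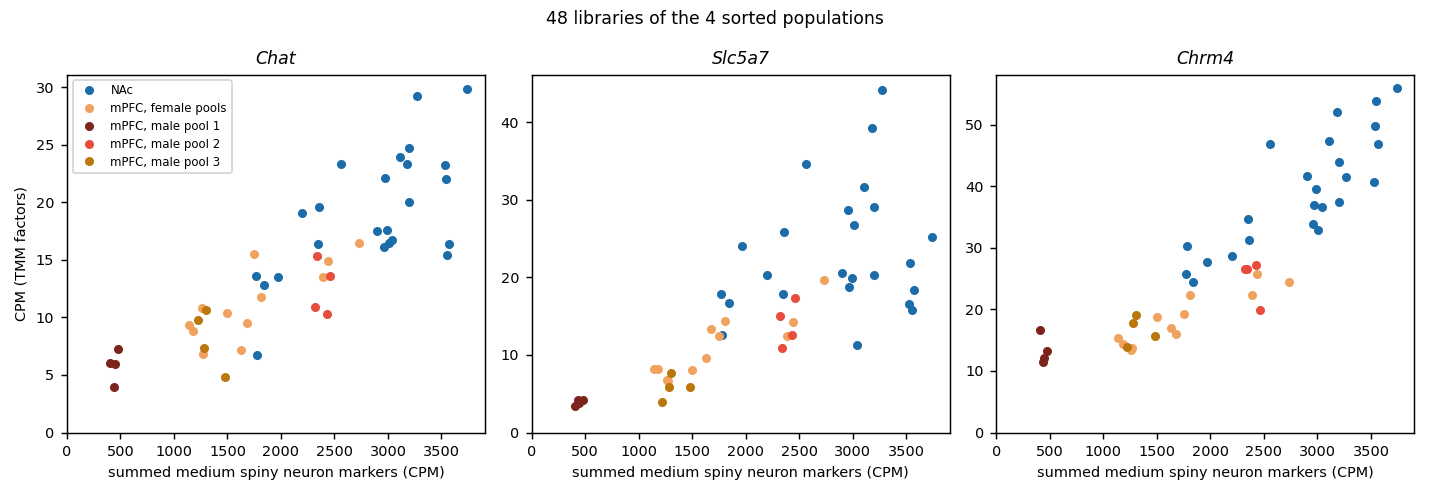
CPM of Chat, Slc5a7 and Chrm4 (y axes, linear, from 0) against the summed CPM of 8 medium spiny neuron markers (x axis) in the 48 libraries of the 4 sorted populations, coloured by region and, for the mPFC, by pool. The 4 libraries of mPFC male pool 1 lie at 406 to 477 CPM of markers and at the low end of Slc5a7, and those of male pool 2 lie at 2320 to 2460 CPM within the NAc range of the markers.

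Sex and single pools changed how many of these calls stood. In female pools alone, 6, 5, 4, 5 and 5 members were called in that order of populations, against 25.2%, 25%, 11.2%, 24.7% and 19.2% of all genes. In male pools alone, Chrm4 was the 1 gene called in non-ensemble neurons (1.44 ± 0.27, adjusted p = 0.0082, against 1.36% of all genes), and none was called in cocaine-seeking, sucrose-seeking or overlapping neurons, where 1.15%, 1.34% and 1.25% of genes were. Each of those 3 male comparisons held 4 members with an unadjusted p under 0.05. In male naive neurons, where 3% of genes were called, Chrm4 was higher in the NAc (0.84, adjusted p = 0.017) and Chrm2 lower (-0.77, 0.0093). The region difference of males minus that of females was tested as well. It was called by edgeR for 1 member, Chrm2 in naive neurons, with 0.0192%, 0%, 0%, 0.00383% and 2.65% of all genes called, and 2, 1, 3, 2 and 6 members had an unadjusted p under 0.05. The mPFC libraries of male pools 1 and 3 are those whose cortical markers were not below the NAc range. With these 2 pools alone (0.277%, 0.717%, 1.17% and 0.792% of genes called in the 4 sorted populations), Slc5a7 was called in sucrose-seeking (1.81, adjusted p = 0.004) and overlapping neurons (2.01, 0.016) and stood at 2.32 (0.051) in non-ensemble and 1.58 (0.10) in cocaine-seeking neurons. Chrm4 behaved alike, with 1.30 (0.023) and 1.24 (0.046) in the first pair and 1.56 (0.16) and 1.38 (0.11) in the second. In these pools Chrna4 and Chrm3 were lower in the NAc, without a call. In the order non-ensemble, cocaine-seeking, sucrose-seeking and overlapping, Chrna4 stood at -0.63, -0.57, -0.34 and -0.72. Chrm3 stood at -0.86, -0.18, -0.47 and -0.52 in the same order. Without female pool 2 (13.1%, 14.2%, 2.35% and 8.13% of genes), the 5 non-ensemble calls held, Chat (0.62, adjusted p = 0.095) and Chrna7 (0.45, 0.12) were lost in cocaine-seeking neurons, and in sucrose-seeking neurons Chrm1 was the 1 call left (0.69, 0.028), with Chrm4 at 0.96 (0.054), Chat at 0.86 (0.11), Slc5a7 at 0.91 (0.14) and Ache at 0.47 (0.26). Leaving out female pool 3 left 1 call in sucrose-seeking neurons (Chrm1; 2.13% of genes) and leaving out male pool 3 left 2 (Chrm1 and Chrm4; 4.27%). In overlapping neurons Slc5a7, Chrm1 and Chrm4 were called when either pool was left out (5.83% and 6.96% of genes), and without male pool 3 the same genes were called in cocaine-seeking neurons (6.06%). In overlapping neurons Slc5a7, Chrm1 and Chrm4 were still called without female pool 2 and Chat (0.69, 0.15), Ache (0.11) and Chrna7 (0.15) were not. Where a transcript-length correction was applied to the counts (7.14%, 5.82%, 3.01%, 4.97% and 5.69% of genes called in the 5 populations in that order), Chrm4 was called in all 5 (1.05 to 1.39) and Chat in none (0.49 to 0.85). Slc5a7 was then called in non-ensemble (1.55, 0.044) and cocaine-seeking neurons (2.19, 0.031) but not in sucrose-seeking (0.55, 0.61), overlapping (0.79, 0.47) or naive neurons (0.72, 0.069). Chrm1 was called with it in sucrose-seeking (0.68, 0.027), overlapping (0.70, 0.032) and naive neurons (0.47, 0.027) but not in non-ensemble (0.55, 0.093) or cocaine-seeking neurons (0.64, 0.11). Ache was left with naive neurons (0.65, 0.016) and Chrna7 with overlapping neurons (0.73, 0.048).

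Other genes of the pathway were read from lists of the same kind. Of 6 further genes of acetylcholine handling, 1, 3, 1, 2 and 2 were higher in the NAc in non-ensemble, cocaine-seeking, sucrose-seeking, overlapping and naive neurons, and none was lower. Slc18a3, which loads acetylcholine into vesicles and lies inside Chat, was higher by 1.13 log2 units in cocaine-seeking (adjusted p = 0.0012), 1.05 in overlapping (0.0042) and 0.88 in naive neurons (0.011). Prima1, which anchors the acetylcholinesterase tetramer in the membrane, was higher in sucrose-seeking (0.96, 0.024) and naive neurons (1.19, 0.0036), and Slc44a1, a choline transporter of low affinity, in non-ensemble neurons (0.46, 0.012). Of the 14 remaining receptor genes, 1, 5, 1 and 3 were lower in the 4 sorted populations in that order, 0 in naive neurons, and none was higher. Of all genes tested in those 4 populations, 15.6%, 19.5%, 7.33% and 13.7% were called in either direction. The genes called higher made up 9.57%, 10.9%, 5.03% and 8.92%, and the remaining called genes were lower. The 14 receptors were low in abundance, most at 1 to 10 CPM. Chrna1, the muscle-type alpha subunit, was the most abundant of them, at a median of 16.9 CPM in the NAc and 30.4 CPM in the mPFC, and fell by 0.88 log2 units in non-ensemble neurons (adjusted p = 0.0013). Lynx1, a membrane-anchored protein that dampens nicotinic receptors, was higher by 0.93 (1.7e-05), 1.03, 0.77 and 0.94 in the 4 sorted populations in that order. Lypd6, a relative of Lynx1, was higher by 1.01, 1.00, 0.67 and 0.86. Among 10 genes that couple muscarinic receptors to the cell, Kcnq3, a channel of the M-current that muscarinic receptors close, was higher by 1.19 (8.2e-06), 1.11, 1.18, 1.16 and 0.86 in the 5 populations. Rgs4, which speeds the turn-off of Gq and Gi, was higher by 1.16, 1.31, 1.20, 1.31 and 0.77. The phospholipases split, with Plcb1 higher (0.60 in non-ensemble neurons) and Plcb4 lower (-0.97).

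The transcripts behind Chat, Slc5a7 and Ache also differed by region when pools were taken as unpaired. Each gene has an annotated transcript that keeps an intron, and its share of the gene's estimated counts was taken per pool, over the 4 populations. These transcripts were picked after their values had been seen, from 22 transcripts that held at least 5% of a member's counts. Chat-205 made up 19.8% ± 4.87 (SD, range 11.6 to 25.0) of Chat counts in the 6 NAc pools and 42.9% ± 8.19 (26.3 to 48.3) in the 6 mPFC pools (exact permutation test, two-sided p = 0.0022, the smallest that 6 against 6 can give, adjusted p = 0.024). The spliced coding transcript Chat-201 took most of the rest, 78.9% ± 5.09 against 54.7% ± 7.96. For Slc5a7-202 the shares were 3.86% ± 2.10 (1.06 to 6.75) and 11.7% ± 3.86 (6.14 to 16.1; exact permutation p = 0.0043, adjusted p = 0.024). For Ache-208 they were 25.3% ± 5.13 (19.4 to 31.9) and 41.9% ± 8.52 (29.4 to 52.3; exact permutation p = 0.0065, adjusted p = 0.029). These tests take the pools of the regions as unpaired. Paired by pool, a test added after the values had been seen, each of the 3 transcripts was higher in the mPFC in 6 of 6 pools, with p = 0.031 by an exact sign-flip permutation test, the smallest that 6 pairs can give, and an adjusted p of 0.11 over the 22 transcripts. Chat pools did not overlap, while male pool 2 of the mPFC reached into the NAc range for Slc5a7-202 (6.14%) and male pool 1 for Ache-208 (29.4%). Library-wide, transcripts with a retained intron held 5.12% to 10.9% (median 7.67) of counts in the NAc and 5.89% to 12.9% (median 9.20) in the mPFC, and the part of this in the 3 genes was not tested. With protein-coding transcripts alone, Chat (1.03 to 1.47), Slc5a7 (1.03 to 1.42), Ache (0.56 to 0.95), Chrm1 (0.43 to 0.76) and Chrm4 (0.87 to 1.17) were called higher in the NAc in all 5 populations. When a block for the pool was added to that fit, Slc5a7 was not called in sucrose-seeking neurons (1.13, edgeR adjusted p = 0.052; 5.96% of genes called).

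**Figure D4:**
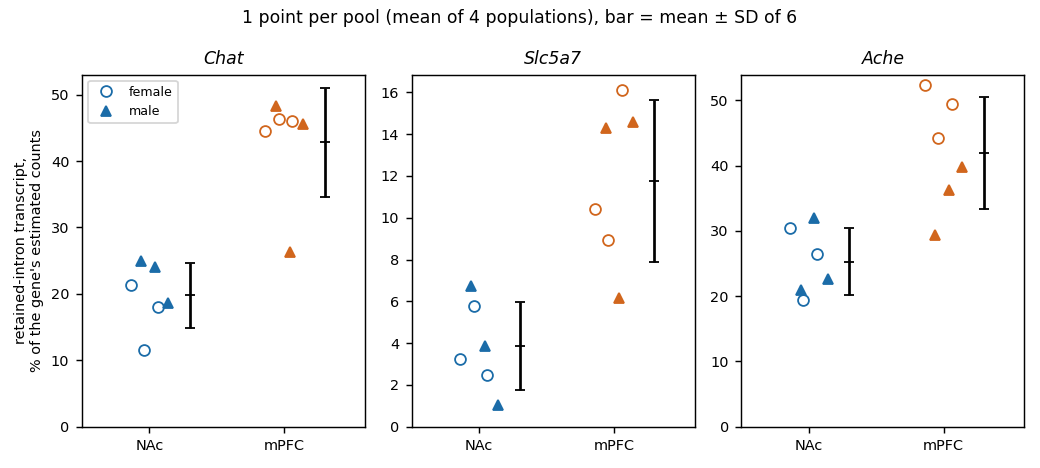
Share of a gene's estimated counts carried by its retained-intron transcript (y axis, percent, from 0; Chat-205, Slc5a7-202 and Ache-208), with 1 point per pool (mean of 4 populations), open circles for female and filled triangles for male pools, and a bar for the mean ± SD of 6 pools. For Chat the NAc pools lie at 11.6% to 25.0% and the mPFC pools at 26.3% to 48.3%, the lowest of them being male pool 2.

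The second comparison set the populations of the NAc against each other. Cocaine-seeking neurons were all tagged with tdTomato on an earlier day, and sucrose-seeking neurons were all found by cFos staining after the later session. Cue, tagging method and time of tagging therefore cannot be told apart in these contrasts, and the paper names the missing counterbalance as a limit. Without a block for the pool, calls came only from contrasts with the sucrose-seeking population. Against non-ensemble neurons, 6 of the 10 genes fell in sucrose-seeking neurons (sexes averaged, 6 pools against 6), where 27% of all genes were called and 15.8% were called lower. The median log2 fold change was -0.45 over the members and 0.20 over all genes. Where counts were corrected for transcript length, Ache, Chrm1 and Chrnb2 turned to positive values, and those values stand beside each gene below.

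Slc5a7 fell most. It held 21.8 to 44.1 CPM (median 27.1) in non-ensemble and 11.3 to 20.6 CPM (median 18.1) in sucrose-seeking libraries, without overlap, and was lower in 6 of 6 pools. The log2 fold change of Slc5a7 was -0.84 ± 0.19 (edgeR, adjusted p = 0.002), and -1.26 (0.10) with the length correction. Chat, its companion in the cholinergic terminal, held 13.5 to 29.8 CPM (median 24) against 12.8 to 22.1 CPM (median 16.5) and was also lower in 6 of 6 pools, at -0.55 ± 0.22 (adjusted p = 0.059). With a block for the pool Chat was called (-0.53, 0.011). Ache held 78.2 to 110 CPM (median 89.7) against 56.4 to 81.5 CPM (median 68.3), lower in 6 of 6 pools by 0.45 ± 0.12 log2 units (0.005), but stood at 0.09 (0.79) with the length correction.

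Chrm1 held 136 to 168 CPM (median 142) in non-ensemble and 93.1 to 132 CPM (median 112) in sucrose-seeking libraries of the NAc, without overlap. It fell by 0.46 ± 0.11 log2 units (adjusted p = 0.003) in the gene sums, and stood at 0.17 (0.44) with the length correction. Chrm2 held 16.9 to 37.3 CPM (median 27.0) against 11.6 to 23.8 CPM (median 18.6) and fell by 0.61 ± 0.21 (0.027). It was also called with the length correction (-0.98, 0.029), but not with coding transcripts alone (-0.41, 0.14). The length correction rests on TPM, of which coding transcripts of Chrm2 held 2.44 of 10.6 in the NAc. Chrm4 held 27.7 to 55.9 CPM against 24.5 to 46.8 CPM, at -0.30 ± 0.18 (0.25), lower in 5 of 6 pools, and was called with the block (-0.29, 0.049). Chrm3 stood at -0.01 (0.99) and was lower in 3 of 6 pools.

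Both subunits of the high-affinity nicotinic receptor were lower in 6 of 6 pools. Chrna4 held 29.4 to 37.0 CPM (median 33.5) in non-ensemble and 21.1 to 29.6 CPM (median 25.1) in sucrose-seeking libraries, a log2 fold change of -0.44 ± 0.11 (adjusted p = 0.0046), -0.08 (0.85) with the length correction and -0.23 (0.11) with coding transcripts alone. Chrnb2 held 63.0 to 83.4 CPM (median 67.5) against 52.9 to 67.5 CPM (median 59.1), at -0.32 ± 0.11 (0.039), whereas with the length correction it was called in the opposite direction (0.56, 0.017) and with coding transcripts alone it stood at 0.09. Chrna7 stood at -0.11 (0.69). With a block for the pool, 8 of the 10 genes were called lower against 32.9% of all genes. Without female pool 2, Slc5a7, Ache, Chrm1 and Chrna4 were called and Chrm2 (0.06) and Chrnb2 (0.15) were not. Leaving out each of the 6 pools in turn, Slc5a7 and Chrm1 were called in all 6 fits, Ache and Chrna4 in 4 (not without female pool 3, nor without male pool 2), Chrm2 in 2 and Chrnb2 in none.

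**Figure D5:**
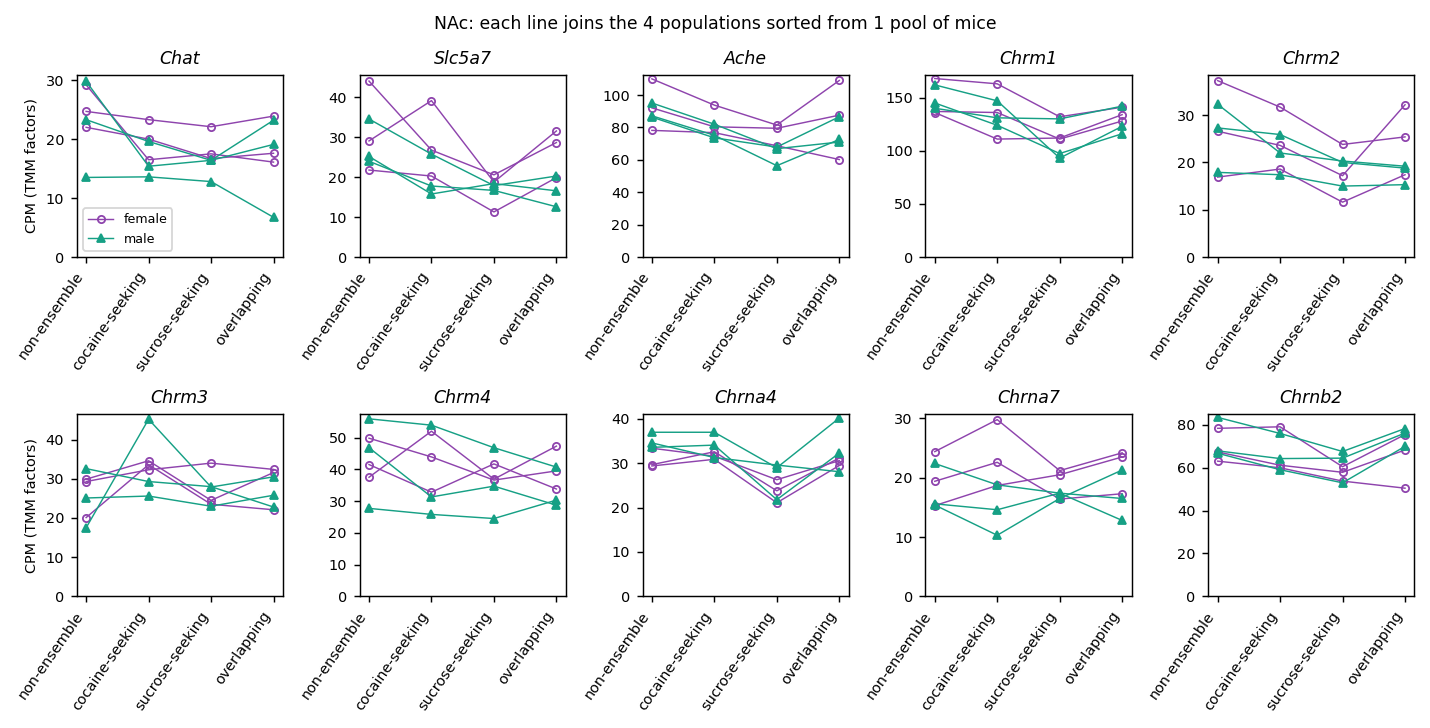
CPM of each gene (y axes, linear, from 0) in the NAc over the 4 sorted populations (x axis), with 1 line per pool of mice, open circles for female and filled triangles for male pools. All 6 lines of Slc5a7, Ache, Chrm1, Chrm2, Chrna4 and Chrnb2 are lower at the sucrose-seeking than at the non-ensemble position in CPM, while with a length correction of the counts Ache (0.09), Chrm1 (0.17) and Chrnb2 (0.56) had positive log2 fold changes.

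Markers of several cell types moved in the same contrast. Summed neuron markers fell from 2300 to 2740 CPM (median 2590) in non-ensemble to 1690 to 2160 CPM (median 1870) in sucrose-seeking NAc libraries, and all 4 (Rbfox3, Snap25, Syt1 and Tubb3) were called lower. Summed cholinergic neuron markers, which include the members Chat and Slc5a7, were 140 to 195 CPM (median 170) against 101 to 143 CPM (median 124). Of these 9 markers, 6 were called lower, where 15.8% of all genes were. Among the 6 were Slc18a3 (-0.70, edgeR adjusted p = 0.0069) and the transcription factor Lhx8 (-0.88). Endothelial markers went up, with 4 of 4 higher and sums of 46.8 to 79.9 CPM (median 63.2) against 87.5 to 212 CPM (median 178). Astrocyte markers were lower (4 of 4), as were 5 of 6 interneuron and 3 of 8 medium spiny neuron markers. Retained-intron transcripts took 5.12% to 6.80% (median 5.61) of counts in non-ensemble and 8.98% to 10.9% (median 9.98) in sucrose-seeking libraries. The part of these shifts in the members' values was not tested. Messenger RNA of Fos, whose protein defines the sort, stood at -0.41 (0.34). Other genes that activity switches on early are not described here, and the paper reports their expression mostly in the sucrose-seeking population.

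The rest of the pathway moved in both directions. Of 10 muscarinic coupling genes, 8 were lower in sucrose-seeking than in non-ensemble NAc neurons (median -0.53), among them Gnai1 (-0.77, adjusted p = 9.4e-05), Rgs4 (-0.76), the Gq-class subunit Gna11 (-0.74) and Gnai2 (-0.63). Of 8 nicotinic chaperones and modulators, 5 were lower, with Lynx1 at -0.85 (4.7e-05), Lypd1 at -0.68, Ly6h at -0.43 and Ric3, which helps nicotinic receptors fold and assemble, at -0.39. Chka, the kinase that commits choline to membrane lipid, was higher by 0.92 (7.3e-05). Of the 14 remaining receptors, Chrna1 was the 1 gene called, higher by 0.71 (0.00021), and the list's median was 0.46.

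Shares of transcripts in sucrose-seeking and non-ensemble NAc neurons were compared in the same way, and none of the 22 passed the adjusted test. Chat-205 went from 15.8% to 24.7% of Chat counts, higher in 6 of 6 pools (exact sign-flip permutation test over pools, two-sided p = 0.031, the smallest that 6 pairs can give, adjusted p = 0.17). Ache-208 went from 18.9% to 40.4%, higher in 5 of 6 pools (exact p = 0.062, adjusted p = 0.28). Slc5a7-202 went from 5.86% to 7.34%, higher in 4 of 6 pools (exact p = 0.75, adjusted p = 0.86). Chrm3-204, also a transcript with a retained intron, went from 5.57% to 11.9%, higher in 6 of 6 pools (adjusted p = 0.17). Chrnb2-203, which is annotated as protein-coding, went from 9.27% to 23.7%, higher in 6 of 6 pools (adjusted p = 0.17).

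Other contrasts in the NAc gave 1 call. Chrna4 was higher in cocaine-seeking (30.9 to 37.0 CPM) than in sucrose-seeking neurons (21.1 to 29.6 CPM) without overlap, by 0.45 ± 0.11 log2 units (adjusted p = 0.026), where 5.29% of genes were called. It was called in 1 of the 6 fits that left out a pool (adjusted p up to 0.27) and stood at 0.13 (0.89) with the length correction and 0.30 (0.11) with coding transcripts alone. This contrast and the one before it share the sucrose-seeking libraries. Slc18a3 (0.92), Lynx1 (0.59) and Gnai1 (0.63) were also higher in cocaine-seeking neurons there, and Chka (-0.55) lower. With the block, 6 members were called in this contrast (15% of all genes), namely Slc5a7 (0.52), Ache (0.27), Chrm1 (0.33), Chrm2 (0.44), Chrna4 (0.45) and Chrnb2 (0.23). Overlapping against sucrose-seeking neurons had no call among the members (1.09% of genes called; 4 members at an unadjusted p under 0.05), and 4 with the block (Ache 0.26, Chrm1 0.28, Chrna4 0.40 and Chrnb2 0.29; 10.7%). Cocaine-seeking against non-ensemble neurons had none (0.145% of genes; 1 at an unadjusted p under 0.05), nor had overlapping against non-ensemble (1.97%; 1) or cocaine-seeking against overlapping neurons (0%; 0). Slc5a7 was lower in overlapping than in non-ensemble neurons with the block (-0.50, adjusted p = 0.0095; 16% of genes).

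Within 1 sex of the NAc, with 3 pools per population, Slc5a7 fell in sucrose-seeking against non-ensemble neurons of females (-0.95, adjusted p = 0.036; 15.9% of genes), and Ache (-0.53, 0.025) and Chrm1 (-0.51, 0.045) fell in males (9.39%), where Chrm1 stood at 0.12 (0.83) and Ache at -0.03 (0.96) with the length correction. Female Slc5a7 was -1.55 (0.12) with that correction and -0.74 (0.11) with coding transcripts alone. Of 12 fits that left out 1 library, the call was lost in 6 for female Slc5a7, 5 for male Ache and 11 for male Chrm1. The difference between sexes was called by edgeR for no member in the NAc, and for 0% of all genes in each of the 6 contrasts, with at most 1 member at an unadjusted p under 0.05. A call in 1 sex is thus not shown to differ from the other.

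In the mPFC no member was called in any of the 6 contrasts of the sorted populations, 60 tests in all, by edgeR, DESeq2 or limma-voom. In sucrose-seeking against non-ensemble neurons, where 13% of all genes were called by edgeR, 1 member had an unadjusted p under 0.05. Chrm1 stood at -0.32 ± 0.15 (adjusted p = 0.16), Chrna4 at -0.44 ± 0.25 (0.27) and Chrnb2 at -0.26 ± 0.15 (0.28), each lower in 6 of 6 pools. The other contrasts called 0.0901% of genes (cocaine-seeking against non-ensemble), 0.568% (overlapping against non-ensemble), 0.416% (cocaine-seeking against sucrose-seeking), 0% (cocaine-seeking against overlapping) and 0.322% (overlapping against sucrose-seeking). The ranges overlapped widely, with Chrm1 at 59.1 to 129 CPM (median 77.3) in non-ensemble and 51.4 to 86.6 CPM (median 61.3) in sucrose-seeking libraries, and Chrna4 at 24.2 to 60.6 CPM (median 29.1) against 18.5 to 39.6 CPM (median 22.1). With a block for the pool these 3 genes were called, Chrm1 at -0.30 (0.021), Chrna4 at -0.43 (0.0068) and Chrnb2 at -0.27 (0.018), against 25.3% of all genes, and Chrnb2 was higher in overlapping than in sucrose-seeking neurons (0.40, 0.0047; 5.74%). Chat (-0.26), Slc5a7 (-0.39), Ache (-0.11), Chrm2 (-0.20), Chrm3 (-0.06), Chrm4 (0.08) and Chrna7 (-0.09) were not called by either fit. Around them, Gna11 (-0.50), Gnai2 (-0.49), Gnaq (-0.46), Lynx1 (-0.60) and Lypd1 (-0.75) were lower and Chka (0.76) and Chrnb1 (1.01) higher in sucrose-seeking mPFC neurons. Whether a population difference itself differed between NAc and mPFC was tested for the 3 contrasts against non-ensemble neurons, and 0 of 10 members and 0 of 29788 genes were called in each by edgeR, with 0 members at an unadjusted p under 0.05. Differences between the sexes in the mPFC were called by edgeR for 0 members, with 0 at an unadjusted p under 0.05, and for at most 0.00693% of genes.

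The naive libraries were set beside the non-ensemble libraries, the closest sorted population. They were sequenced to a greater depth, and male naive files give values to more decimals than the others, so a separate quantification cannot be told apart from the group. In the NAc, where 18% of genes were called, Chat was lower in naive than in non-ensemble neurons (12.7 to 20.2 against 13.5 to 29.8 CPM, -0.59 ± 0.18, adjusted p = 0.033), as were Ache (55.7 to 93.2 against 78.2 to 110 CPM, -0.39 ± 0.11, 0.027) and Chrm2 (13.7 to 17.6 against 16.9 to 37.3 CPM, -0.82 ± 0.18, 0.0059). All 3 pairs of ranges overlapped, and without replicate 2 of each group none of the 3 was called. None was called with the length correction either (Chat -0.53, 0.13; Ache -0.42, 0.067; Chrm2 -0.64, 0.076; 14.1% of genes), where Chrm1 was called higher in naive neurons (0.40, 0.036). In the mPFC, where 34.7% of genes were called, Chrm1 was higher (111 to 211 against 59.1 to 129 CPM, 0.64 ± 0.16, 0.0056), as was Chrm4 (20.0 to 37.4 against 13.2 to 24.4 CPM, 0.52 ± 0.15, 0.016). Of these 2 calls, 1 was left without replicate 2 and 1 without replicate 3. With the length correction (33% of genes), Chrm1 was called (0.55, 0.037), Chrm4 was not (0.52, 0.063) and Chrnb2 was called lower (-0.51, 0.021). By sex, female pools carried most calls, and the difference between the sexes was not tested in this comparison. Chat (-0.92, 0.035), Slc5a7 (-0.89, 0.036), Ache (-0.74, 0.013) and Chrm2 (-0.96, 0.031) were lower in female naive NAc neurons (8.35% of genes) and none was called in male ones (9.08%; 1 at an unadjusted p under 0.05). In the female mPFC (25.6%), Chat (-1.09, 0.019), Slc5a7 (-1.25, 0.046) and Ache (-0.69, 0.018) were lower and Chrm1 (0.98, 0.0051) and Chrm3 (0.94, 0.0031) higher, and in the male mPFC (11.9%) Chrm4 was higher (1.00, 0.0061). Of 3 fits that left out a replicate, female NAc calls were lost in 3 for Chat and Slc5a7, 2 for Chrm2 and 1 for Ache. Female mPFC calls were lost in 2 each for Chat, Slc5a7, Ache and Chrm1 and in 0 for Chrm3. The male Chrm4 call was lost in 1. Marker sums also differed by sex in naive mPFC libraries, with 979 to 1510 CPM of cortical and 958 to 1560 CPM of medium spiny neuron markers in female pools and 369 to 400 and 2570 to 2680 CPM in male pools, and their part in these values was not tested.

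The genes whose levels ran closest to each member were ranked by Pearson's r of log2 CPM over the 24 sorted libraries of a region, as a description, since those libraries share pools and depth. In the NAc, Chat ran closest to Dlx5, a transcription factor of forebrain GABAergic neurons (r = 0.87), and Slc5a7 to Prps1 (0.90) and the respiratory chain subunit Ndufv2 (0.89). Chrm4 ran closest to Tac1, the substance P precursor of Drd1-class medium spiny neurons (0.89), and Chrm2 to Sparc (0.87) and Calb2, a calcium-binding protein of interneurons (0.86). Ache ran with Pdzd8, Phf24 and Dzank1 (0.90 each), Chrm1 with Cx3cl1, Syt11 and Nell2 (0.93 each), Chrna4 with Slc6a17 (0.90), Chrnb2 with Clstn2 (0.91), Chrm3 with Spsb4 (0.77) and Chrna7 with Gpr155 (0.74). In the mPFC, Slc5a7 ran closest to the dopamine receptor Drd2 (0.90) and to the retinoic acid receptor Rarb (0.88). Chrm4 ran closest to Gabrd (0.87), Chat to Lgsn (0.84), Ache to Pag1, Trpm3 and Cacna2d2 (0.94 each), Chrm1 to Synpo (0.93), Chrm2 to Tmem178b (0.92), Chrm3 to the potassium channel Kcnj6 (0.95), Chrna4 to Nrn1 (0.92), Chrna7 to Rasl10a (0.79) and Chrnb2 to Timp2 (0.92).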

How the data were processed

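The authors deposited, per library, Salmon transcript tables with estimated counts and TPM, on GENCODE transcripts of the mouse genome (the submitters' processing notes name cutadapt, FastQC, Salmon and DESeq2, with no versions). The libraries were made by low-input SMART-seq after ribosomal RNA depletion, from pools of 3 mice. Transcripts were joined to genes by identifier on GRCm39: 116085 of 117209 matched, and the 1124 others held 0.932% to 7.1% of counts. Estimated counts were summed per gene, rounded and tested with edgeR 4.0.16 (TMM, filterByExpr, quasi-likelihood test, Benjamini-Hochberg, R 4.3.3), without the pool as a term. CPM use TMM factors. DESeq2 1.42.0, limma-voom (limma 3.58.1), the replicate block and other settings were alternatives, and length correction means length-scaled TPM counts. The 4 populations of a number come from 1 pool of mice. Their deviations correlated by 0.092 to 0.17 on average, against -0.085 to -0.046 for other numbers. Both regions came from the same mice, and across regions same-numbered samples correlated by -0.22 to 0.16. Members were all named. Of each pathway list, up to 4 genes per comparison with the smallest adjusted p were eligible to be named, and of likeness up to 3 genes. Members and lists were chosen with earlier results of these data known. The tests were checked on artificial counts. Columns of transcript length were used only for the length correction. The value of 1 marker gene is not reported here.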

Additional observations from a re-analysis of the deposited data

Results flagged for a closer look

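Chrm2 in the naive libraries was the 1 result picked out, because its region difference itself differed between the sexes. Naive Chrm2 stood at 17.6, 15.6 and 15.6 CPM in the male NAc and at 22.4, 34.1 and 28.3 CPM in the male mPFC, while females had 13.7, 16.8 and 17.6 CPM (NAc) and 11.9, 14.7 and 12.7 CPM (mPFC). All male mPFC libraries lay above all others. The log2 difference of NAc over mPFC was -0.77 in males and 0.27 in females, and male minus female it was -1.04 ± 0.22 (95% interval -1.47 to -0.61, edgeR adjusted p = 0.025). It ran from -1.61 to -0.76 under the alternatives, was lost in 1 of 8 of them and in 3 of 6 fits that left out a pool (highest adjusted p 0.25). Summed medium spiny neuron markers were 2570 to 2680 CPM in the male and 958 to 1560 CPM in the female naive mPFC libraries, and their part in the difference was not tested.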

How the results depend on the processing

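Counts are of member genes called, and the causes of the changes below were not tested. With the replicate block, calls went from 7 to 19 of 60 in the NAc and from 0 to 4 in the mPFC (sexes averaged), from 1 to 12 in the female NAc, 2 to 5 in the male NAc and 0 to 1 in the male mPFC. Across regions, where the same mice gave both samples, the block left Ache (0.56, adjusted p = 0.051) and Chrna7 (0.47, 0.099) in sucrose-seeking neurons and Chrna7 in female non-ensemble (0.73, 0.074) and sucrose-seeking neurons (0.66, 0.081) uncalled, and Chrna7 in naive neurons called. Naive and non-ensemble samples share only a number, and there the block lost Slc5a7 in the female mPFC (-1.21, 0.056). Under length-scaled TPM counts the NAc calls were 2 (sexes averaged), 0 (female) and 0 (male), the region calls were 2, 2, 2, 3 and 3 in the order non-ensemble, cocaine-seeking, sucrose-seeking, overlapping and naive (5, 6, 6, 6 and 5 without it), and the 3 naive NAc calls were lost and Chrm1 (0.40) called instead. Values that changed sign there were Ache 0.09, Chrm1 0.17 and Chrnb2 0.56 in sucrose-seeking against non-ensemble NAc neurons, and Chrm1 0.12 in males; with coding transcripts alone Chrnb2 was at 0.09. Coding transcripts alone gave 4 NAc calls (0 female, 1 male) and 4 naive mPFC calls in place of 2. The study's thresholds (adjusted p under 0.01, log2 fold change over 0.75) left 1 NAc call (0 in each sex alone), 3 region calls in each of the last 4 populations, 1 naive NAc and 0 naive mPFC calls. In the female NAc, DESeq2, its size factors and limma-voom gave 2 calls each; in the male NAc, size factors and no low-count filter gave 1 each. With male pools 1 and 3 alone, male region calls went from 1 to 0 in non-ensemble and from 0 to 2 in sucrose-seeking and overlapping neurons. Leaving out 1 replicate gave 2 to 6 NAc calls (sexes averaged), 0 to 6 in the female and 0 to 2 in the male NAc, 0 in the mPFC fits, 5 to 5, 3 to 6, 1 to 5, 3 to 5 and 4 to 6 region calls in the order above, and 0 to 2 and 1 to 2 naive calls in NAc and mPFC. Of 82 called member results, 81 kept direction and call under DESeq2, 82 under limma-voom, 77 without the filter and 29 under length scaling. Receptors at 1 to 10 CPM rest on few counts.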

Other observations

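When the 4 sorted populations were summed per pool and region, 6 members were called higher in the NAc by edgeR with Benjamini-Hochberg adjustment, against 22.8% of all genes: Slc5a7 by 1.41 log2 units, Chrm4 by 1.21, Chat by 1.07, Chrm1 by 0.95, Ache by 0.72 and Chrna7 by 0.58. In male pools alone, where 1.89% of genes were called, Slc5a7 stood at 1.42 (adjusted p = 0.049), Chrm4 at 1.09 (0.025) and Chat at 1.05 (0.056). This setting was chosen with the data in view.

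Genes around the members also separated naive from non-ensemble neurons. Chrna1, the muscle-type nicotinic subunit, was lower in naive neurons by a log2 fold change of -1.58 in the NAc and -1.83 in the mPFC, and Rgs4, which shortens muscarinic signalling, was higher by 0.91 and 1.30. In the NAc, Slc18a3 (-0.67) and Lhx8 (-1.32), both of cholinergic neurons, were lower. In the mPFC, the nicotinic modulators Lypd6 (1.05) and Lynx1 (0.78) were higher.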
